A study of Mus musculus with 6 samples.

Results

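The 39 *Hox* genes that the GENCODE annotation of GRCm39 places in the mouse *HoxA*, *HoxB*, *HoxC* and *HoxD* clusters were examined in RNA-Seq of colonic crypts. Members were chosen by name alone, as every gene of the table named *Hoxa*, *Hoxb*, *Hoxc* or *Hoxd* followed by a number, which gave 29 of the 18049 genes in the table. These were 11 of 11 *HoxA* genes, 9 of 10 *HoxB* genes, 1 of 9 *HoxC* genes and 8 of 9 *HoxD* genes. *Hoxb1*, *Hoxd1* and every *HoxC* gene except *Hoxc6* were not analysed here. The libraries came from 3 control and 3 GSK503-treated mice of 1 engineered line, 1 library per mouse. GSK503 inhibits EZH2, the enzyme that places the repressive mark H3K27me3 on histone H3.

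All 6 mice carried the same alleles on a C57BL/6J background. They carried *Villin-Cre*, a transgene expressed in the intestinal epithelium, and a knocked-in humanized *Tgfbr2* allele with a poly(A) repeat. The study's methods state that a Western-style diet was begun at 8 weeks of age and that the trial lasted 9 weeks. Treated mice were injected into the tail vein 2 times per week with GSK503 at 200 μg/kg in PBS, and control mice received captisol in PBS, so the injected vehicles were not the same. The labels name no sex, no age at death and no position along the colon for any library. *Xist* ranged from 0.419 to 0.936 estimated CPM in controls and from 825 to 1236 after GSK503, and the Y-linked gene *Uty* from 42.5 to 53.7 in controls and from 0.67 to 1.082 after GSK503. Sex and treatment therefore cannot be told apart in any value below.

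*Hox* genes encode homeodomain transcription factors that give cells along the head-to-tail axis their positional identity. Within a cluster the genes lie in the order in which they are used, with low paralog numbers acting in anterior tissues and high numbers in posterior tissues such as the hindgut. The clusters are classical targets of Polycomb repression, in which EZH2 is the catalytic subunit, and adult gut epithelium and gut mesenchyme both keep a *Hox* pattern from the embryo.

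The promoters of *Hoxb3*, *Hoxb8*, *Hoxd11* and *Hoxd13*, genes whose groups stood apart, are shown first. The groups of *Hoxb9* and *Hoxc6* also stood apart, and their promoters are not printed. For every gene, the 300 bases just before the start of its canonical transcript were read from GRCm39. A pair of letter strings was searched on both strands, CATAAA (bound by Cdx factors) and TGATNNAT (the composite of a Pbx and a *Hox* site), and matches to the 2 strings may share a few bases. Among 17212 promoters of genes in the table, 10.55% held CATAAA and 7.082% held TGATNNAT. CATAAA stood in 3 of 9 *HoxB*, 1 of 8 *HoxD* and 0 of 11 *HoxA* promoters, and TGATNNAT in 4 of 9 *HoxB*, 0 of 8 *HoxD* and 3 of 11 *HoxA* promoters. The promoters of the *HoxB* genes with the lowest log2FC, *Hoxb3* (chr11:96213852-96214151, plus strand) and *Hoxb8* (chr11:96172431-96172730, plus strand), are printed with matches to either string in capitals.
Hoxb3: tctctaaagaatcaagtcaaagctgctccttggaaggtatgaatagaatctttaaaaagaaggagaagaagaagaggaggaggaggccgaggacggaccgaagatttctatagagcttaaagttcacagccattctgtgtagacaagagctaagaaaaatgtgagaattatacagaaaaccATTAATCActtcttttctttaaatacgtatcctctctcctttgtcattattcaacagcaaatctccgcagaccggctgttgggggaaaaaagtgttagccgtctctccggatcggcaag
Hoxb8: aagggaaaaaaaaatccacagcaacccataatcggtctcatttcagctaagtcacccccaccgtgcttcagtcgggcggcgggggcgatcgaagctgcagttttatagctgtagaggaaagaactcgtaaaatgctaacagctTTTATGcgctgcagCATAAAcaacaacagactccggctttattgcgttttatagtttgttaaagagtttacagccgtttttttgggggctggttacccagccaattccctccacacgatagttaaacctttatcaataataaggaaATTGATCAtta

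The *HoxD* promoters whose treated values lay above every control value are shown for their CpG content, as CpG-rich promoters are where Polycomb complexes are known to bind. CpG dinucleotides are in capitals for *Hoxd11* (chr2:74510675-74510974, plus strand) and *Hoxd13* (chr2:74498354-74498653, plus strand). The *Hoxd13* window held 37 CpG, more than 96.75% of all promoters, whereas the *Hoxd11* window held 9, below the median of 11 over all promoters. The median was 24 in *HoxA*, 13 in *HoxB* and 10.5 in *HoxD*. The ranges overlapped, from 3 to 46 in *HoxA*, 8 to 23 in *HoxB* and 6 to 37 in *HoxD*. Another annotated *Hoxd11* transcript starts further upstream than the window shown. These matches and counts describe the letters only, since no binding or histone data were analysed here.
Hoxd11: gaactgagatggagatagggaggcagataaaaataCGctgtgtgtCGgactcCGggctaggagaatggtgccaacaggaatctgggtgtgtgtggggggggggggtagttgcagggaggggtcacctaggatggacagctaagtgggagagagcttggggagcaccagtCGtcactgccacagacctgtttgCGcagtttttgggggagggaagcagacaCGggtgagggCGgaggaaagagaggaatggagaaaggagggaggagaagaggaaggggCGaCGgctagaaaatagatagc
Hoxd13: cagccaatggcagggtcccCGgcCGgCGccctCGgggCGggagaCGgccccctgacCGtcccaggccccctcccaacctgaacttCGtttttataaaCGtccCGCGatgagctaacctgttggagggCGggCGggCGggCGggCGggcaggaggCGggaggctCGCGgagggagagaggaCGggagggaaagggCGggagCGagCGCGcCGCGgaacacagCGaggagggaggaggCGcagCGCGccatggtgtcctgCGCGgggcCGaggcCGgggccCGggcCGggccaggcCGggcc

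Values are estimated CPM, that is, estimated counts relative to the library size as scaled by the authors. Estimated library totals lay between 108162848 and 135085027 counts, so that 3 counts correspond to between 0.0228 and 0.0271 CPM, a floor that covers counting error only. The comparison used limma on log2(value + 0.1), a scale on which differences of low genes come out too small, and a log2FC above 0 means higher in treated mice. The filter of at least 0.1 in at least 3 of 6 mice kept 16670 genes, among them 28 *Hox* genes, and *Hoxc6* did not pass it. The epithelial markers *Epcam*, *Krt8*, *Cldn7*, *Cdh1* and *Vil1* summed to between 8884 and 9757 in controls and between 9418 and 10779 after GSK503, and all 5 were detected in every mouse.

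The summed value of all 29 *Hox* genes overlapped between the groups. It was 406, 390.1 and 394 in controls 1, 2 and 3 and 398, 398 and 415 in GSK503 mice 1, 2 and 3, so that treated mouse 3 was the highest and control mouse 2 the lowest. *HoxB* supplied between 51.6% and 57.8% of the sum, *HoxA* between 36.5% and 43.9%, *HoxD* between 4.47% and 7.61%, and *Hoxc6* at most 0.0384%. Per kilobase of the canonical transcript, the paralogs 9 to 13 supplied between 59.6% and 63.8% of the sum in controls and between 62.6% and 68.5% after GSK503. In bulk libraries, fewer cells of a type and less RNA per cell cannot be told apart.

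**Figure D1:**
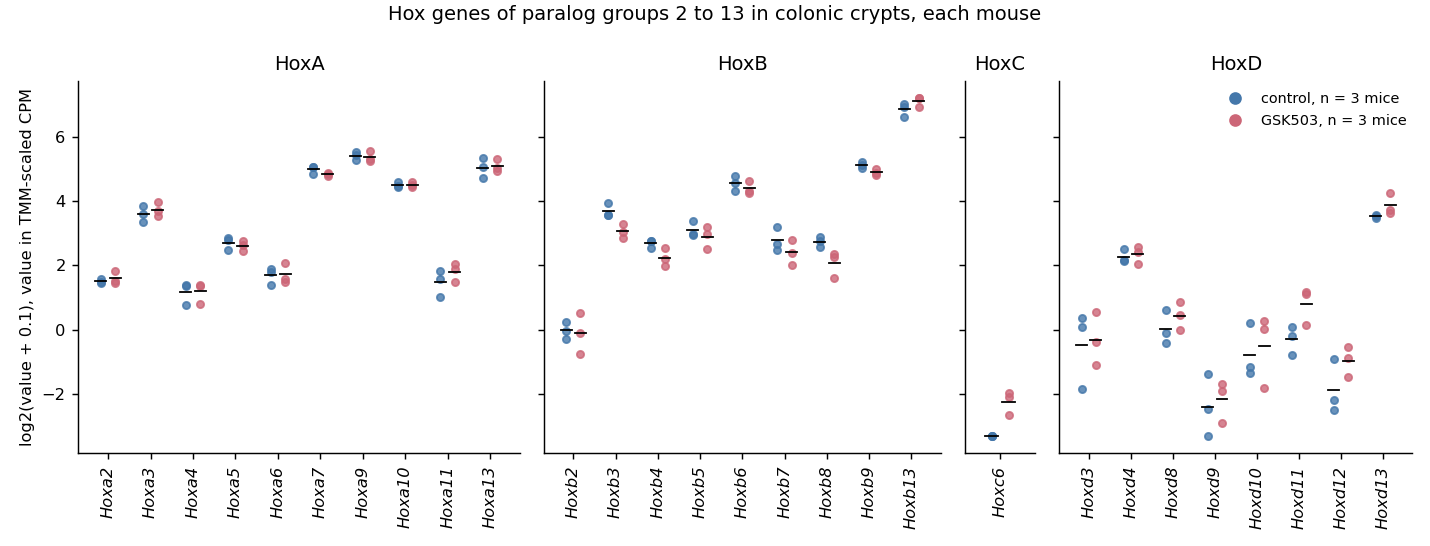
Each point is 1 mouse, plotted as log2(estimated CPM + 0.1) for the *Hox* genes of paralog groups 2 to 13 in the 4 clusters, with control and GSK503-treated mice in different colours. *Hoxb13* is the highest gene, and *Hoxc6* sits at the bottom with 0 in the 3 control mice.

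Per kilobase, *Hoxb13* was the most abundant *Hox* transcript, with a mean level of 56.9 CPM per kilobase over the 6 mice. *Hoxb13* is the most posterior gene of its cluster and is known from the hindgut and prostate. Its lowest mouse, at 43.7, lay above the highest mouse of *Hoxa7*, at 16.7. *Hoxa7* had a mean level of 15.0, *Hoxa13* of 13.4, *Hoxa9* of 13, *Hoxb6* of 12.9 and *Hoxb9* of 11.9 CPM per kilobase, and the ranges of these 5 genes overlapped from each to the next. The next step in the order lay below *Hoxb9*, with *Hoxa10* at 8.76 and then *Hoxd13* at 5.29. Of the 28 neighbouring pairs in the order of the 29 genes, 5 had ranges that did not overlap and 23 had ranges that did. The lowest levels belonged to *Hoxd9* at 0.0581 and *Hoxc6* at 0.0345 CPM per kilobase.

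**Figure D2:**
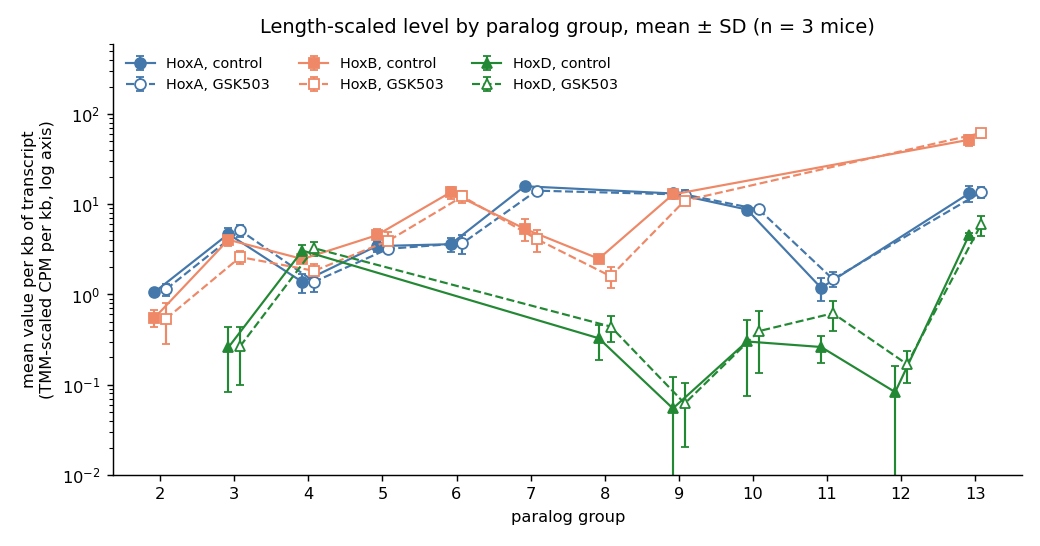
Mean level per kilobase of canonical transcript (log axis) by paralog group (2 to 13) for *HoxA*, *HoxB* and *HoxD*, with SD over 3 mice for control and for treated mice. Lower bars that would reach 0, as for *Hoxd9*, run off the axis, and *Hoxb13* stands highest with 56.9 CPM per kilobase over all mice.

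No *Hox* gene passed an adjusted p of 0.05 or 0.1 in limma, in either direction. Across all genes tested, 0.642% passed 0.05 and 1.97% passed 0.1. The lowest adjusted p of a *Hox* gene was 0.13, for *Hoxb3* (limma, Benjamini-Hochberg over 16670 genes). At an unadjusted limma p below 0.05, 1 *Hox* gene was higher (*Hoxd11*) and 4 were lower (*Hoxb3*, *Hoxb4*, *Hoxb8* and *Hoxb9*), where 7.06% of all genes were higher and 6.27% lower. limma-voom on the estimated counts gave 0 *Hox* genes at an adjusted p of 0.05 and the same counts of 1 and 4. These genes were not the same with each mouse left out. *Hoxd11* had an unadjusted limma p of 0.0615 without control mouse 1, 0.0696 without treated mouse 1 and 0.0539 without treated mouse 3, where the 1 higher gene was *Hoxb13*, *Hoxb13* and *Hoxd13* in turn. Without control mouse 2, *Hoxd12* was higher beside *Hoxd11*, and the lower genes were *Hoxa7*, *Hoxb3* and *Hoxb9*. Without control mouse 3, treated mouse 2 or treated mouse 3, the lower genes were the 2 genes *Hoxb3* and *Hoxb8*. Of the 28 tested *Hox* genes, 16 had a higher and 12 a lower mean after GSK503, with a median log2FC of 0.02, and over all genes 48.9% were higher and 51.1% lower, with a median of -0.01. Every GSK503 mouse exceeded every control mouse for *Hoxd11* and *Hoxd13*, against 9.84% of all genes, and lay below every control mouse for *Hoxb3*, *Hoxb8* and *Hoxb9*, against 9.22% of all genes.

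Within the clusters, the means were arranged as follows. In *HoxB*, the genes *Hoxb2* to *Hoxb9* all had a lower mean after GSK503 (8 of 8, median log2FC -0.30, range -0.66 to -0.09), while *Hoxb13* had a higher mean. In *HoxD*, all 8 genes had a higher mean (median log2FC 0.30, range 0.08 to 1.11). In *HoxA*, 7 genes had a higher and 4 a lower mean (median 0.02, range -0.16 to 0.33). Genes of a cluster are neighbours that share mice and libraries, so they are not replicates of each other, and the difference between clusters was not tested. Scaling by library size alone moved the median of all genes to -0.12 and that of *HoxA* to -0.09, and it left 8 of 8 lower for *Hoxb2* to *Hoxb9* and 7 of 8 higher for *HoxD*, where *Hoxd4* turned to -0.03. In the fits that leave out 1 mouse, between 6 and 8 of the 8 *HoxD* genes had a higher mean, with 6 without control mouse 3, treated mouse 1 or treated mouse 2, and 7 or 8 of the genes *Hoxb2* to *Hoxb9* had a lower one. The *HoxD* median was 0.72 without control mouse 2.

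**Figure D3:**
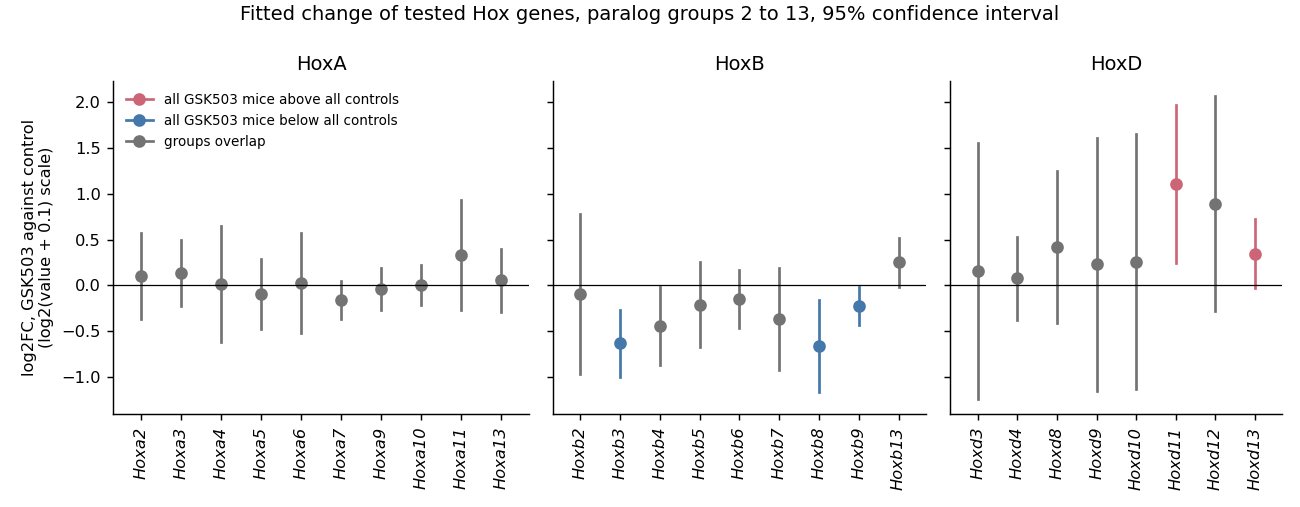
log2FC of GSK503-treated against control mice with its 95% confidence interval from limma for the tested genes of paralog groups 2 to 13 in *HoxA*, *HoxB* and *HoxD*, coloured by whether the mice of the groups overlap. *Hoxb2* to *Hoxb9* lie below 0, *HoxD* above 0 and *HoxA* around 0, and no gene passed an adjusted p of 0.05.

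Among the anterior *HoxB* genes, *Hoxb3*, which lies at chr11:96214152-96238756 on the plus strand and is known from the hindbrain and blood stem cells, had the lowest p. It had 11.8, 11.7 and 15.2 CPM in controls 1, 2 and 3 and 7.04, 8.17 and 9.66 CPM in GSK503 mice 1, 2 and 3. All treated mice lay below all control mice. The log2FC was -0.63 (standard error 0.16, 95% confidence interval -1.0 to -0.27, limma adjusted p = 0.13). *Hoxb4*, a gene known to expand blood stem cells, had 5.69, 6.69 and 6.65 CPM in controls and 5.73, 4.49 and 3.85 CPM after GSK503. The groups overlapped, since treated mouse 1 reached the lowest control mouse, and the log2FC was -0.44 (limma adjusted p = 0.357).

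The central and posterior *HoxB* genes, which pattern the trunk, had the following values. *Hoxb8* (chr11:96172731-96176160) had 6.61, 7.29 and 5.84 CPM in controls and 5.04, 4.66 and 2.93 CPM after GSK503, with no overlap between the groups. Its log2FC was -0.66 (standard error 0.23, limma adjusted p = 0.241), or -0.43 without treated mouse 3. *Hoxb9* had 34.9, 32.3 and 37.4 CPM in controls and 32.0, 29.1 and 28.2 CPM after GSK503, so that its highest treated mouse lay just below its lowest control mouse. Its log2FC was -0.23 (limma adjusted p = 0.337). *Hoxb6* had 20.0, 27.2 and 23.6 CPM in controls and 24.8, 19.8 and 19.1 CPM after GSK503, with overlap and a log2FC of -0.15 (limma adjusted p = 0.693). *Hoxb2*, *Hoxb5* and *Hoxb7* overlapped as well, with log2FC between -0.37 and -0.09, and 58.5% of the *Hoxb2* canonical exon bases are covered by a gene on the other strand.

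*Hoxb13* (chr11:96085106-96088273) had 129, 123 and 98.01 CPM in controls and 121, 146 and 148 CPM after GSK503. Treated mice 2 and 3 were the highest of the 6 and treated mouse 1 lay within the control range, and the log2FC was 0.25 (95% confidence interval -0.02 to 0.52, limma adjusted p = 0.409), or 0.13 without control mouse 3. Summed over *Hoxb2* to *Hoxb9*, the value was 93.9, 103 and 105 in controls and 91.9, 77.7 and 76.0 after GSK503, so that treated mouse 1 lay just under the lowest control. That sum leaves out *Hoxb13*, the *HoxB* gene with a higher mean. With *Hoxb13* included, the *HoxB* sum overlapped, at 223, 225 and 203 in controls and 213, 224 and 224 after GSK503. Among B cell markers, *Ms4a1* had 1.42, 3.21 and 0.449 CPM in controls and 0.195, 0.0637 and 0.0915 CPM after GSK503, and *Cd79b* had 1.16, 5.08 and 0.59 CPM in controls and 0.11, 0.319 and 0.333 CPM after GSK503, both with no overlap. *Cd79a* and *Ighm* had log2FC of -1.91 and -1.76 and overlapped, and none of these genes passed an adjusted p of 0.05 in limma. Their part in the *HoxB* values was not tested.

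The posterior *HoxD* genes pattern limb, genital and hindgut tissue, and *Hoxd11* had the largest log2FC of all *Hox* genes tested. *Hoxd11* (chr2:74509901-74517360) had 0.474, 0.949 and 0.775 CPM in controls and 2.16, 0.992 and 2.05 CPM after GSK503. These rest on 62.3, 105 and 98.5 estimated counts in controls and 255, 124.5 and 246 after GSK503. Treated mice 1 and 3 were clearly apart, and treated mouse 2 was just above the highest control mouse. The log2FC was 1.11 (standard error 0.38, 95% confidence interval 0.25 to 1.97, limma adjusted p = 0.252). Of its canonical exon bases, 9.49% are shared with another gene on the same strand.

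*Hoxd13* (chr2:74498654-74501943), whose loss is known to affect the anorectal muscle and digits, had 11.7, 11.6 and 11.01 CPM in controls and 19.1, 13.2 and 12.2 CPM after GSK503. The treated mice all lay above the control mice, treated mouse 1 by far the most, and the log2FC was 0.35 (limma adjusted p = 0.418), or 0.15 without treated mouse 1. *Hoxd12*, its neighbour, had 0.0761, 0.434 and 0.118 CPM in controls and 0.585, 0.255 and 0.441 CPM after GSK503. Control mouse 2 reached the treated range there, and the log2FC was 0.89 (limma adjusted p = 0.505). A ratio of posterior *HoxD* to *HoxB* values was chosen after these values were seen and was not tested. The sum of *Hoxd11* to *Hoxd13* over the sum of *Hoxb2* to *Hoxb9* was 0.13, 0.126 and 0.113 in controls and 0.238, 0.186 and 0.194 after GSK503. Over all *HoxD* genes, the sum overlapped, at 18.7, 22.3 and 17.6 in controls and 30.3, 22.6 and 22.1 after GSK503.

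**Figure D4:**
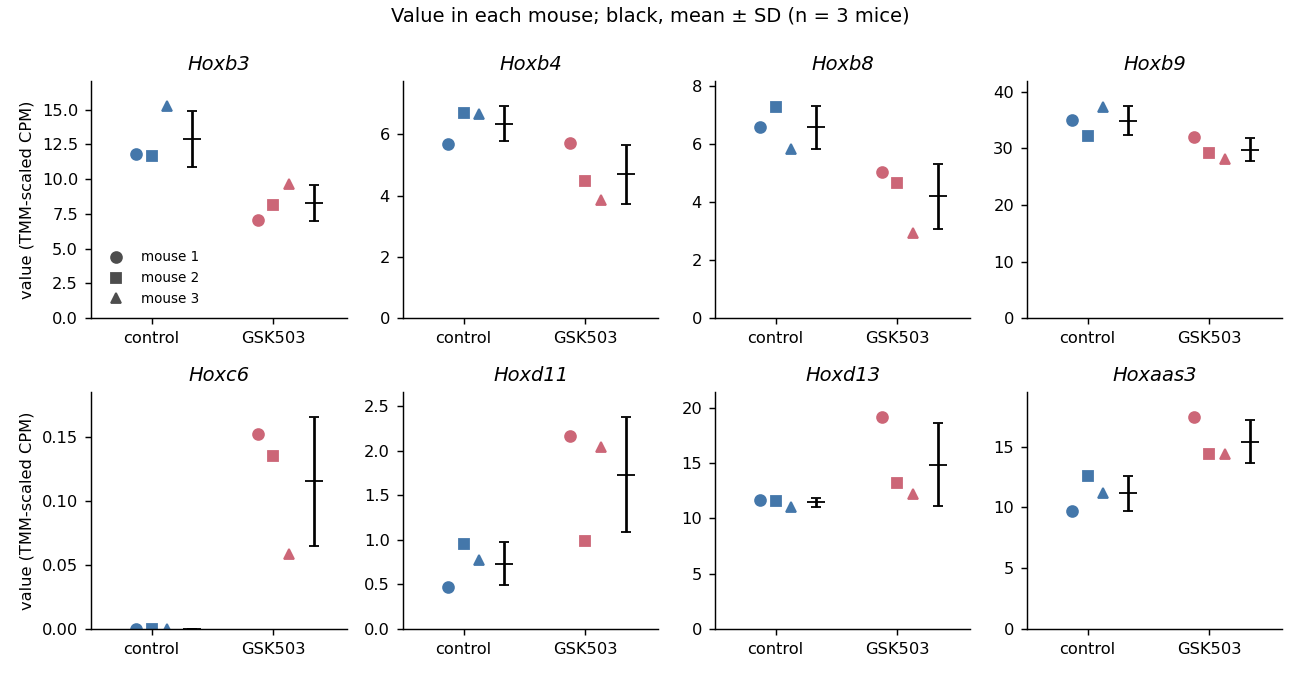
Estimated CPM in each mouse for *Hoxb3*, *Hoxb4*, *Hoxb8*, *Hoxb9*, *Hoxc6*, *Hoxd11*, *Hoxd13* and *Hoxaas3*, with mean and SD per group (n = 3). The treated mice lie below the control mice for *Hoxb3*, *Hoxb8* and *Hoxb9* and above them for *Hoxc6*, *Hoxd11*, *Hoxd13* and *Hoxaas3*, while *Hoxb4* overlaps.

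The other *HoxD* genes overlapped between the groups. *Hoxd4* had 4.32, 5.599 and 4.35 CPM in controls and 5.87, 5.21 and 4.05 CPM after GSK503, with a log2FC of 0.08 (limma adjusted p = 0.912). *Hoxd3* and *Hoxd4* share 75% and 61.7% of their canonical exon bases with other genes on the same strand, so the split of reads between them is uncertain. *Hoxd3*, *Hoxd8*, *Hoxd9* and *Hoxd10* had means between 0.128 and 1.13 CPM over the 6 mice and log2FC between 0.16 and 0.42. *Hoxd10* had 0.343, 1.04 and 0.291 CPM in controls and 0.907, 0.183 and 1.09 CPM after GSK503. Smooth muscle markers (*Myh11*, *Acta2*, *Tagln*, *Des*, *Cnn1*, *Actg2* and *Lmod1*) summed to 21.4, 91.4 and 47.2 in controls and to 4.56, 4.26 and 123 after GSK503. All 7 had a lower fitted mean in treated mice, though none passed an adjusted p of 0.05, 1 of them was at 0 in some mouse, and treated mouse 3 was the highest of the 6. Control mouse 2 and treated mouse 3 were the highest for both *Hoxd10* and these markers, whereas treated mouse 1 was high for *Hoxd10* and low for the markers. Among markers of glia and neurons, *Elavl4* had 0, 0.452 and 0.354 CPM in controls and 0.568, 0.653 and 0.691 CPM after GSK503, with no overlap (log2FC 1.33, limma adjusted p = 0.399). *S100b* and *Uchl1* overlapped, with log2FC of 0.12 and 0.43, and *Sox10* was at most 0.3 CPM in any mouse and was not tested. The part of muscle or nerve tissue in the *HoxD* values was not tested.

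**Figure D5:**
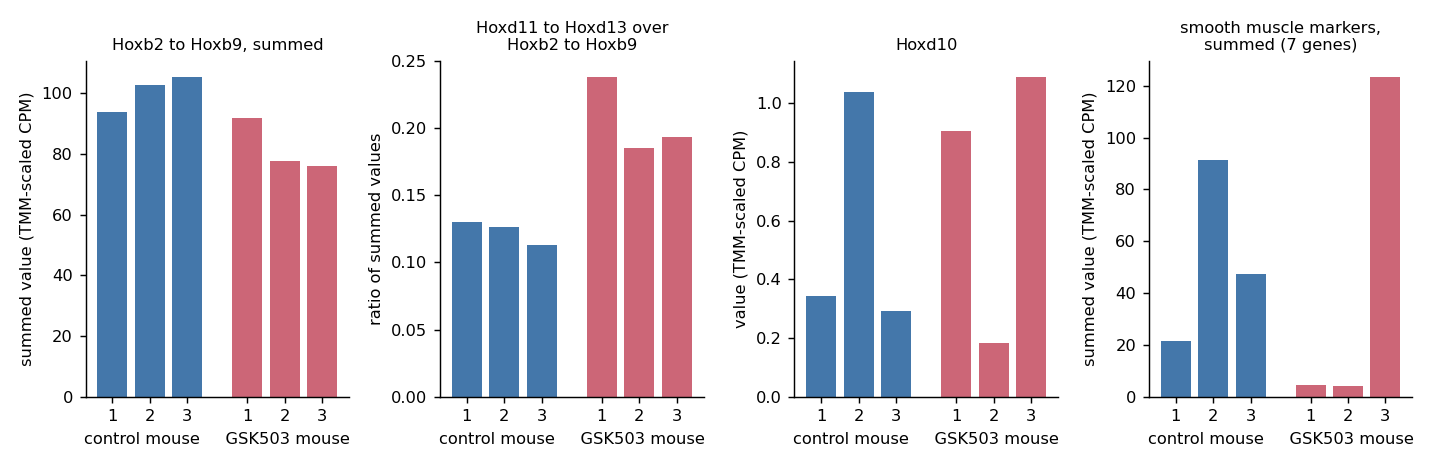
Bars give, for each mouse, the summed estimated CPM of *Hoxb2* to *Hoxb9*, the ratio of *Hoxd11* to *Hoxd13* over *Hoxb2* to *Hoxb9*, the estimated CPM of *Hoxd10* and the summed estimated CPM of 7 smooth muscle markers. The first measure is lower and the second higher in all treated mice, and the muscle markers range from 4.26 to 123 among the treated mice alone. The first and second measures leave out *Hoxb13*, and the sum over all *HoxB* genes, not shown, overlaps between the groups.

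The *HoxA* differences were scattered on both sides of 0. Among its 3 genes with the highest means, the standard error was 0.092 for *Hoxa7*, 0.10 for *Hoxa9* and 0.15 for *Hoxa13*. *Hoxa9*, known for its part in myeloid leukaemia, had 45.6, 38.8 and 43.2 CPM in controls and 38.0, 39.5 and 46.7 CPM after GSK503. The groups overlapped, with a log2FC of -0.04 (95% confidence interval -0.27 to 0.19, limma adjusted p = 0.905). *Hoxa13*, which acts with *Hoxd13* in the hindgut, had 33.1, 26.4 and 40.2 CPM in controls and 32.7, 30.6 and 39.2 CPM after GSK503, with a log2FC of 0.05 (95% confidence interval -0.29 to 0.40) that turned to -0.06 when library size alone set the scaling. *Hoxa7* had 33.3, 28.7 and 33.5 CPM in controls and 28.8, 29.0 and 27.6 CPM after GSK503. Control mouse 2 lay within the treated range, and the log2FC was -0.16 (limma adjusted p = 0.501). *Hoxa10* had a log2FC of 0.01 and an interval from -0.21 to 0.22. No *HoxA* gene had an unadjusted p below 0.05, and none of the 11 had groups without overlap. On the other strand, 28.8% of *Hoxa7*, 24.4% of *Hoxa10* and 21.2% of *Hoxa3* canonical exon bases are covered by another gene. The kit kept strand, and the strand setting of the counting is not given in the sources used here.

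*Hoxc6* was the only *HoxC* gene in the table and was listed at 0 in all 3 control mice. In the treated mice it had 0.153, 0.135 and 0.0582 CPM, from 18, 17 and 7 estimated counts. Set against a floor of 3 counts in the control library with the highest floor (0.0271 CPM), the treated mean was 4.25 times the floor. The lowest treated mouse was 2.15 times the floor, which covers counting error only. Under a fit with no filter on low values, limma gave an adjusted p of 0.326.

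Long noncoding RNAs are also read from the *Hox* clusters, several of them from the strand opposite to the *Hox* genes. Of 9 noncoding and antisense genes in the table, 6 had a higher and 3 a lower mean. None passed an adjusted p of 0.05, against 0.642% of all genes. *Hoxaas3* (chr6:52152197-52192056, plus strand) overlaps *Hoxa3* to *Hoxa7* on the opposite strand. It had 9.69, 12.6 and 11.2 CPM in controls and 17.4, 14.4 and 14.4 CPM after GSK503. Every GSK503 mouse exceeded every control mouse, as for 9.84% of all genes, and the log2FC was 0.46 (standard error 0.14, limma adjusted p = 0.184). The *Hoxa3* gene it overlaps had a log2FC of 0.14 (95% confidence interval -0.23 to 0.50). The other 8 overlapped, among them *Hottip*, transcribed from the posterior end of *HoxA*, and *Hoxa11os*, antisense to *Hoxa11*.

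The partners and regulators of *Hox* proteins gave few differences. Of 9 TALE homeodomain cofactors, which bind DNA beside *Hox* proteins, 8 were tested and 0 passed an adjusted p of 0.05. Of 8 ParaHox and Evx genes, 5 were tested and 0 passed, where 0.642% of all genes passed. *Cdx1* and *Cdx2*, the intestinal activators of *Hox* genes, overlapped between groups. *Cdx1* had a log2FC of 0.03 (95% confidence interval -0.12 to 0.19) and *Cdx2* of -0.02 (95% confidence interval -0.19 to 0.15).

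Of 23 Polycomb genes, 0 passed an adjusted p of 0.05, 18 had a lower and 5 a higher mean, and the median log2FC was -0.07. *Ezh1*, *Ezh2*, *Suz12*, *Aebp2* and *Cbx2* had an unadjusted p below 0.05, and their treated mice lay below their control mice. Over all genes, 6.27% were lower at an unadjusted limma p below 0.05, and 9.22% had every treated mouse below every control mouse. *Cbx2*, a reader of H3K27me3, had 7.37, 8.78 and 8.84 CPM in controls and 5.66, 6.36 and 6.40 CPM after GSK503 (log2FC -0.43, limma adjusted p = 0.25). The log2FC of *Suz12*, a core partner of EZH2, was -0.39 (limma adjusted p = 0.136; it passed 0.05 when library size alone set the scaling). The other 3 had log2FC between -0.27 and -0.24. Of 11 trithorax genes, which oppose Polycomb, 1 passed, against 0.642% of all genes. *Kdm6a*, an X-linked H3K27 demethylase, rose from 37.4, 46.6 and 48.7 CPM in controls to 78.0, 74.6 and 71.2 CPM after GSK503 (log2FC 0.76, limma adjusted p = 0.0157). For an X-linked gene, this difference and that of *Xist* fall on the same split of the mice, and without treated mouse 1 or treated mouse 2 *Kdm6a* kept a log2FC of 0.73 and 0.76 but did not pass (limma adjusted p = 0.0524 and 0.093). *Ash1l* and *Rbbp5* had lower values in every treated mouse, with log2FC of -0.25 and -0.08, and neither passed.

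Genes just outside the clusters were examined as well. Of 24 flanking genes, 18 were tested, and 7 had a higher and 11 a lower mean. Of these, 0 passed an adjusted p of 0.05, against 0.642% of all genes. Treated mice lay below control mice for *Hibadh* and *Tax1bp1* beside *HoxA* and for *Smug1* and *Calcoco1* beside *HoxC*. They lay above them for *Mtx2* beside *HoxD*. Over all genes, 9.22% had every treated mouse below every control mouse and 9.84% had every treated mouse above. The log2FC of *Calcoco1* was -0.41 (limma adjusted p = 0.0994; it passed 0.05 when library size alone set the scaling). It was -0.20 for *Tax1bp1*, -0.17 for *Hibadh* and *Smug1* and 0.17 for *Mtx2*. None of the genes beside *HoxB* had groups without overlap.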

How the data were processed

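Per the study's methods, reads of stranded total RNA libraries were aligned with STAR (GRCm39) and RSEM supplied estimated gene counts. The deposited signal is estimated CPM, scaled by the authors with the TMM method of edgeR. The filter on genes and the strand setting are not given in the sources used here. Most low values, between 85.9% and 88.7% of those under 50 steps, were whole multiples of a library's step within a tolerance of 0.001 of the step, which gave the estimated totals.

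The members and gene lists were chosen with earlier results of these data known. As the values are scaled, the test was limma 3.58.1 in R 4.3.3, run with lmFit and eBayes (intensity trend) on log2(value + 0.1) over the 16670 genes with at least 0.1 in at least 3 mice, with Benjamini-Hochberg adjustment over all of them. The mice of a group were taken as replicates, and 3 against 3 cannot give an exact permutation p under 0.1. All 6 columns were mapped to a mouse. *Hox* genes were named if they were among the 3 highest of their cluster, had an unadjusted p below 0.05, or had groups that did not overlap; genes of the other lists if they met the last 2 of these, with *Cdx1*, *Cdx2* and *Ezh2*. *Hoxa10*, *Hoxd10* and *Hoxd12* were added after their values were seen. Positions, transcript lengths and promoters were from GENCODE M39 and GRCm39, and 95.36% of the rows matched 1 gene. Tested on simulated data of 16670 genes, the fit called 195 of 200 genes changed by an absolute log2FC of 1.5, with 17 false calls. The simulation gave every gene the same dispersion, and its change was larger than any *Hox* log2FC (-0.66 to 1.11). It therefore does not show how often changes of the size seen in *Hox* genes would be called. The 16 alternatives were other pseudocounts, filters and scalings, no trend, a replicate block, no X- and Y-linked genes, limma-voom on estimated counts, and each mouse left out. Python 3.11.15 was used for tables and figures. A few named items are not reported here.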

Additional observations from a re-analysis of the deposited data

How the results depend on the processing

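No alternative called a *Hox* gene at an adjusted p of 0.05, and the lowest adjusted p of a *Hox* gene was between 0.0639 (library size alone) and 0.318 (without treated mouse 2). The log2FC of *Hoxb3* lay between -0.75 and -0.51 and that of *Hoxb8* between -0.81 and -0.43 over 16 alternatives, and that of *Hoxd11* between 0.83 and 1.45 over the 15 in which it passed the filter. The replicate numbers do not pair the mice: same-numbered mice had correlations of deviations of 0.0322, -0.126 and -0.119, and not every mouse correlated best with its own number. With a replicate block, 2 *Hox* genes in place of 4 were lower at an unadjusted p below 0.05, 33 genes in place of 107 passed 0.05 over all genes, and 0 trithorax genes passed. Library size alone gave 260 calls over all genes, a median log2FC of -0.12 over all genes and -0.088 over *Hox* genes, 1 Polycomb call (*Suz12*) and 1 flanking call (*Calcoco1*), and turned *Hoxa13* to -0.0601 and *Hoxd4* to -0.0347. Without the intensity trend 16 genes passed over all genes. The 1 *Hox* gene higher at an unadjusted p below 0.05 became 2 with no filter and 0 with a filter of at least 1, which *Hoxd11* did not pass and which left 3 *HoxD* genes, all 3 with a higher mean. *Kdm6a*, the 1 trithorax call, was lost (0 calls) without the trend and without treated mouse 1 or 2. With X- and Y-linked genes left out, *Kdm6a* was itself removed and not tested, so the 0 trithorax calls there say nothing about it.

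Leaving out each mouse in turn gave 1 to 2 higher and 2 to 4 lower *Hox* genes at an unadjusted p below 0.05. The genes changed with the mouse left out: *Hoxd11* was among the higher ones in 3 of the 6 fits, and in the other 3 the higher gene was *Hoxb13* or *Hoxd13*. *Hoxb3* was among the lower ones in all 6. Of the 8 *HoxD* genes, 6 to 8 had a higher mean. The median log2FC of the *Hox* genes lay between -0.0606 (without treated mouse 3) and 0.0306, that of *HoxB* genes 2 to 9 between -0.47 and -0.22, and that of *HoxD* between 0.25 and 0.72 (without control mouse 2). The trithorax calls ranged from 0 to 1. *Hoxa13* ranged from -0.10 to 0.201, below 0 without control mouse 2 (-0.10) and treated mouse 3 (-0.0483). *Hoxa9* ranged from -0.131 to 0.0164, above 0 without control mouse 1 (0.00943) and treated mouse 1. *Hoxd4* ranged from -0.0385, without treated mouse 1, to 0.224. The causes were not tested. For *Hoxc6* and the low *HoxD* genes, few counts limit what can be seen.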
